A study of Homo sapiens with 9 samples.

Results

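The genes described here encode the enzymes and transporters that take up glucose and carry its carbon through glycolysis to pyruvate and lactate, or through the pentose phosphate pathway to pentose sugars. They were taken by name from a list of 32 genes, drawn up with earlier results of these data known. Counts of these genes set beside all tested genes are therefore descriptions, not tests of the list. The list holds 26 genes of glucose uptake, glycolysis and lactate or pyruvate handling, and 6 genes of the pentose phosphate pathway. All 32 were found among the 58347 Ensembl gene IDs of the read count table, and all 32 passed the filter on low counts that left 23675 genes for testing. The list does not hold every gene of either pathway.

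RNA was sequenced from 9 libraries of K562, a human erythroleukaemia cell line with the BCR-ABL fusion. All 9 came from K562-FIRE cells, in which lentiviruses placed 3 proteins under the EF1a promoter: dCas9, a DNA-binding Cas9 that does not cut, MS2-Fkbp, and SS18-Frb, which carries a subunit of the BAF chromatin remodelling complex. Rapamycin bridges the Fkbp and Frb domains, which recruits SS18 to the site of the guide, and the study asked whether BAF brought to the HBG1 promoter activates that gene. The 4 groups were the HBG1 promoter sgRNA with DMSO (n = 3), the HBG1 promoter sgRNA with 10 nM rapamycin (n = 3), the non-targeting sgRNA with DMSO (1 library, replicate 2) and the non-targeting sgRNA with 10 nM rapamycin (n = 2), all for 24 h. The labels do not say whether the cells were a clone or whether replicates were separate cultures, so p-values measure the spread between these libraries, which may be technical.

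Libraries held from 19797409 to 31619671 counts. All 10 K562 markers were detected in every library, among them the erythroid factor GATA1 at 190.0 to 274 CPM (the count scaled to library size) and the transferrin receptor TFRC at 668 to 825 CPM. Of 10 markers of other lineages, 4 had a mean under 1 CPM in every group (CD3E, MS4A1, CD14 and ALB), whereas the keratin gene KRT8 was at 320.2 to 524 CPM. The summed level of those 10 genes was 415 to 559.9 CPM with the HBG1 sgRNA under DMSO and 523 to 604 CPM under rapamycin, and its part in the results was not tested.

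In glycolysis, glucose is phosphorylated by hexokinase, committed by phosphofructokinase and split by aldolase, and the lower enzymes then yield ATP and pyruvate, which lactate dehydrogenase can reduce to lactate. The pentose phosphate pathway leaves at glucose 6-phosphate: its oxidative branch makes NADPH and ribulose 5-phosphate, and its non-oxidative branch exchanges carbon between pentoses and glycolytic sugars. The kinase complex mTORC1, which rapamycin inhibits in any cell with or without a guide, is known to raise expression of many of these genes, in part through HIF-1 and SREBP transcription factors.

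Rapamycin was accompanied by a lower level of many glycolysis genes and by changes in both directions among pentose phosphate genes. With the HBG1 sgRNA, 11 of the 26 glycolysis genes fell and 0 rose at an adjusted p under 0.05 (edgeR's quasi-likelihood test, Benjamini-Hochberg adjustment over all 23675 genes), against a background of 4.05% of all tested genes called lower and 2.75% called higher (6.8% in all). Of the 6 pentose phosphate genes, 2 fell (RPIA and TKT), 1 rose (PGLS) and 3 did not pass. In bulk RNA, fewer cells with a transcript and less of it per cell cannot be told apart. The median log2 fold change was -0.23 over the 26 glycolysis genes and -0.10 over the 6 pentose phosphate genes, against 0.02 over all tested genes. Single genes spanned -1.12 (HK2) to 0.53 (PGLS). Below 0 lay 23 of the 26 glycolysis and 3 of the 6 pentose phosphate genes, against 47.7% of all genes. In 3 of 3 replicate pairs, 17 glycolysis genes were lower, against 22.4% of all genes lower and 23% higher in 3 pairs.

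The 6 HBG1 sgRNA libraries were also fitted alone, with and without the replicate number as a block. Of the same 20179 genes, the fit called 1377 (6.82%) with no block and 3441 (17.1%) with it. Among the 32 genes it called 11 with no block, 8 of glycolysis and 3 of the pentose phosphate pathway, and all 11 were kept among the 20 called with the block. The block called 15 glycolysis genes, 13 lower and 2 higher, and 5 pentose phosphate genes, 3 lower and 2 higher, against backgrounds of 9.62% lower and 7.43% higher. The 9 genes gained were SLC2A1, PFKL and TALDO1 as higher and GAPDH, PGK1, ENO1, PFKP, SLC16A1 and RPE as lower. In the fit on all 9 libraries GAPDH, PGK1 and ENO1 passed without a block. In the fit on all 9 libraries, leaving out HBG1 sgRNA DMSO replicate 2, DMSO replicate 3 or rapamycin replicate 3 left 5 glycolysis genes called. The pentose phosphate count became 1 without rapamycin replicate 3, and 2 without DMSO replicate 2 or DMSO replicate 3. Over all genes the calls fell, from 1609 to 664 without DMSO replicate 2, 749 without DMSO replicate 3 and 693 without rapamycin replicate 3.

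**Figure D1:**
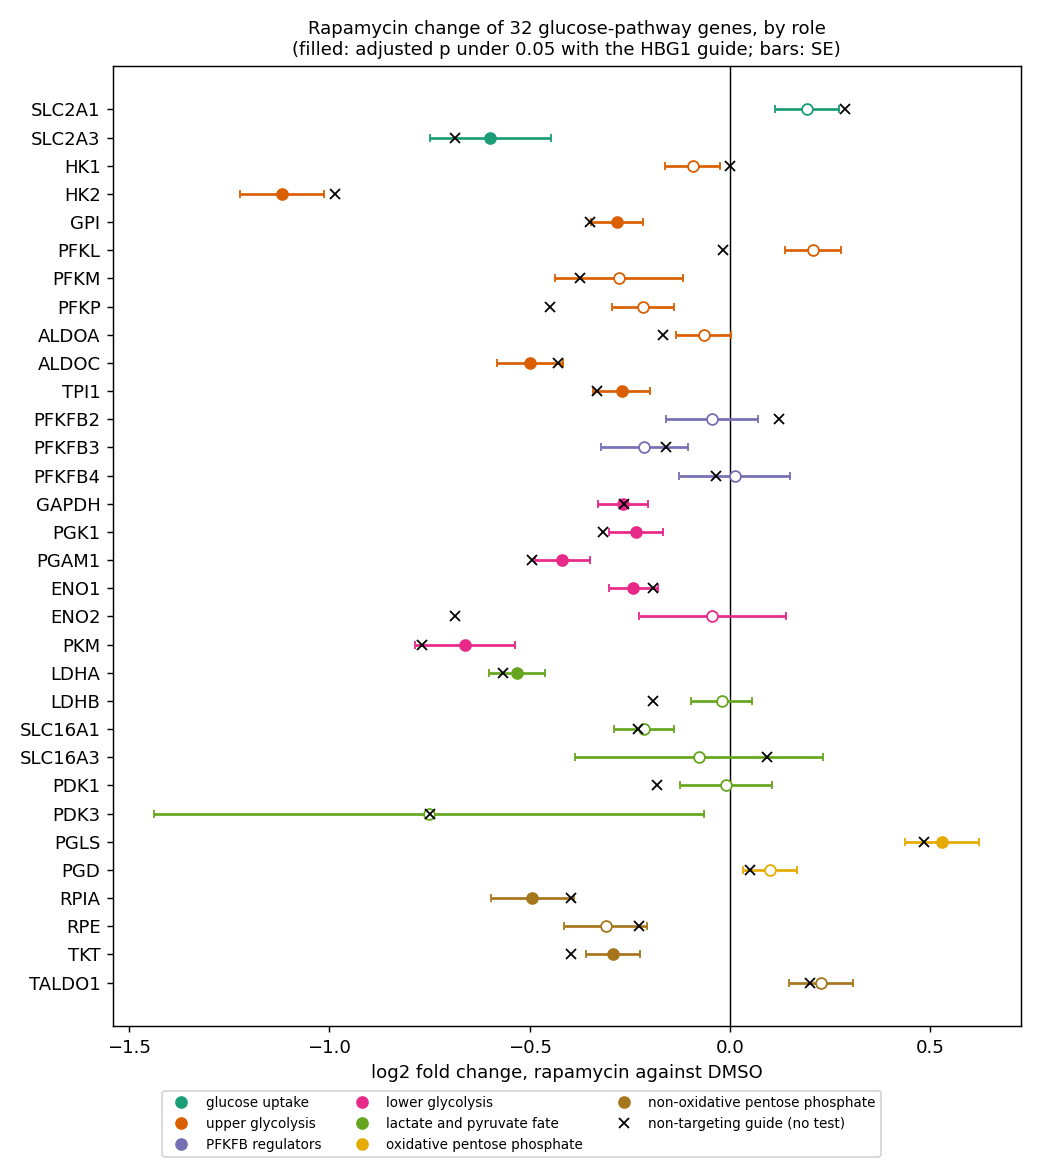
Log2 fold change of rapamycin against DMSO for each of the 32 genes, coloured by role, with the HBG1 sgRNA as circles (filled where the adjusted p was under 0.05, bars SE) and the non-targeting sgRNA as crosses without a test. Filled circles lie left of 0 for 13 genes, and right of 0 for PGLS alone.

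The promoters of 4 genes are shown because the genes differed in their change: HK2 had the largest fall in glycolysis, PGLS the largest change in the pentose phosphate pathway, and LDHB the smallest change among the 10 genes most abundant per exon length. LDHA, the isoenzyme partner of LDHB, was added after the values were seen. Each line starts 250 bases before the most upstream start site in RefSeq (GRCh38.p14) and stops at the next exon of GENCODE 29, 5′ to 3′ on the gene's strand. Capitals mark ACGTG, the core of the sites that HIF-1 and E-box factors are known to bind, and TGANNNNGC, the core of the antioxidant response element, on either strand. CACGTG holds ACGTG on both strands and so counts as 2 matches.
HK2: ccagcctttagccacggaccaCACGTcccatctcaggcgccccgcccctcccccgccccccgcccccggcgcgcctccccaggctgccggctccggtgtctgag
LDHA: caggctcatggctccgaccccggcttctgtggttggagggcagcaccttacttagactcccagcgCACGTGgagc
LDHB: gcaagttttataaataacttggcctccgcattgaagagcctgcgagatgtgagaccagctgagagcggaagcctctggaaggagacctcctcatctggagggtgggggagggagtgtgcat
PGLS: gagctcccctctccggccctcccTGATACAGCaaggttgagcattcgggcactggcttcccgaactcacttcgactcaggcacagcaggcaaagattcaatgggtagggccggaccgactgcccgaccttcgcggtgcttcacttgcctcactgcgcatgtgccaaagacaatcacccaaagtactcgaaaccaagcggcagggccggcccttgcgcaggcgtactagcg

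These stretches were chr2:74833877-74833980 (plus strand) for HK2, chr11:18394313-18394387 (plus strand) for LDHA, chr12:21657972-21658092 (minus strand) for LDHB and chr19:17511399-17511628 (plus strand) for PGLS, with 104, 75, 121 and 230 bases. The HK2 stretch held ACGTG at 1 place, the LDHA stretch held 1 CACGTG, the PGLS stretch held TGANNNNGC at 1 place, and the LDHB stretch held neither. For PKM, the gene with the next largest fall, the RefSeq window starts within a GENCODE exon and is not shown. Motifs were counted in the full 250 bases, which were found for 29 of the 32 genes and 27326 promoters in all. These windows can run into exons: 146 of the bases lay from the first exon base on for HK2, 175 for LDHA, 129 for LDHB and 20 for PGLS. In the full windows ACGTG had 2 matches for HK2 and 5 for LDHA, and TGANNNNGC had 1 each for LDHB and PGLS. The LDHB match lay outside its printed stretch. For 26 of the 29 genes, the 30 bases after the window were found in a GENCODE 29 transcript of that gene. ACGTG was present in 9 of 23 glycolysis windows and 1 of 6 pentose phosphate windows, against 18.6% of all promoters of that length. It was in 6 of the 12 windows of genes that fell and in 4 of the 17 others. TGANNNNGC was in 8 of 23 and 3 of 6 windows, against 35.5% of all promoters. A match is a description of letters, not of a bound site.

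Glucose enters through facilitative transporters, of which 2 were measured here. SLC2A3 (GLUT3, chromosome 12, 7919230 to 7936275) stood at 82.6, 128 and 103 CPM in DMSO replicates 1, 2 and 3 and at 53.5, 84.6 and 68.8 CPM in rapamycin replicates 1, 2 and 3. Its groups overlapped, since the lowest DMSO library lay below the highest rapamycin library, but every pair was lower, with log2 changes of -0.63, -0.59 and -0.58. SLC2A3 fell 1.51-fold (log2 fold change -0.60, SE 0.15, adjusted p 0.0253), and its call was lost under DESeq2 or without DMSO replicate 2 or 3 or rapamycin replicate 3 (adjusted p up to 0.150). In both arms replicate 1 was the lowest, and this was also so for HK2, PFKM, PFKFB2, PFKFB3, PKM and RPE. Over all tested genes replicate 1 was lowest in both arms for 18.9% and highest in both for 19.8%, and among the 32 genes these counts were 7 and 7. Replicate 3 was lowest in both arms for 8 of the 32 (25.0%) against 10.6% of all genes, and highest in both for 1, PKM, against 10.1%.

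SLC2A1 (GLUT1), the widely expressed transporter, stood at 274, 258 and 254 CPM under DMSO and 313, 305 and 281 CPM under rapamycin. All 3 rapamycin libraries were above all 3 DMSO libraries, yet the log2 fold change of 0.19 (SE 0.08) did not pass (adjusted p 0.179). It passed as higher with the replicate block (adjusted p 0.0183) and in the additive model of guide and treatment, which has no block (adjusted p 0.0289). The additive model estimates a rapamycin change shared by both guides, so the non-targeting libraries enter it and it does not measure the HBG1 sgRNA change alone. With the non-targeting sgRNA, SLC2A1 was at 258 CPM under DMSO and 346 and 284 CPM under rapamycin, and SLC2A3 at 120.3 CPM against 69.6 and 80.1 CPM. The ratio of SLC2A3 to SLC2A1 per exon length went from 0.307 ± 0.0743 to 0.177 ± 0.0419 (SD, n = 3 each).

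**Figure D2:**
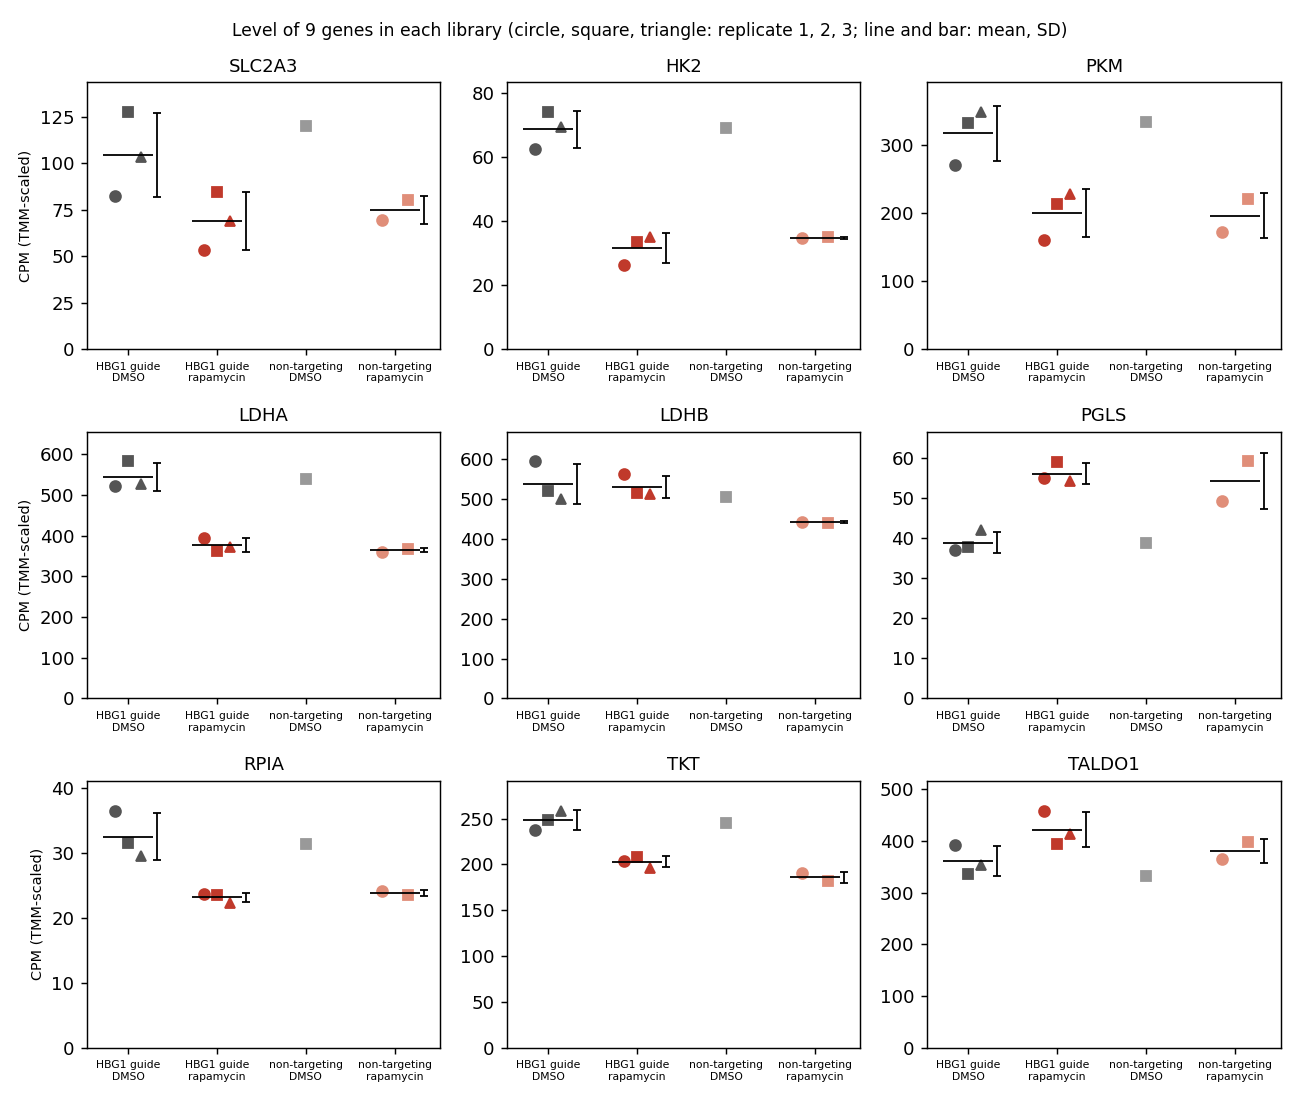
TMM-scaled CPM of 9 genes in each of the 9 libraries, with replicate number as the symbol and the group mean and SD as line and bar. HK2 lies between 62.7 and 74.2 CPM in the HBG1 sgRNA DMSO libraries and between 26.4 and 35.0 CPM in the rapamycin libraries, whereas LDHB overlaps between these groups.

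HK2, the inducible hexokinase (chromosome 2, 74833981 to 74893359), changed more than any other of the 32 genes that passed. It stood at 62.7, 74.2 and 69.5 CPM under DMSO and at 26.4, 33.4 and 35.0 CPM under rapamycin, with no overlap. It fell 2.17-fold (log2 fold change -1.12, SE 0.11, adjusted p 5.47e-05). In the non-targeting libraries HK2 was at 69.0 CPM under DMSO and at 34.7 and 35.0 CPM under rapamycin, a log2 difference of -0.99. HK1, the constitutive hexokinase, was the more abundant, with 607 ± 12.8 CPM under DMSO against 569 ± 33.6 CPM under rapamycin (SD, n = 3 each), and did not pass (-0.09, SE 0.07, adjusted p 0.485). Per exon length HK2 was 0.118 ± 0.0104 of HK1 under DMSO and 0.0578 ± 0.00937 under rapamycin (SD, n = 3 each).

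After phosphorylation, glucose 6-phosphate isomerase (GPI, chromosome 19, 34359480 to 34402413) makes fructose 6-phosphate. GPI stood at 286, 291 and 293 CPM under DMSO and 239, 241 and 236 CPM under rapamycin, with no overlap. Its log2 fold change was -0.28 (SE 0.06, adjusted p 0.0151), which did not pass when DMSO replicate 2, DMSO replicate 3 or rapamycin replicate 3 was left out (adjusted p up to 0.0744).

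The 3 phosphofructokinase subunits, which form the committing enzyme of glycolysis as tetramers, did not pass in the edgeR fit on all 9 libraries. PFKL (liver type) was at 164 ± 8.88 CPM in DMSO against 189 ± 7.32 CPM in rapamycin libraries, PFKP (platelet type) at 101 ± 3.60 and 87.0 ± 4.69 CPM, and PFKM (muscle type) at 25.0 ± 3.76 and 20.5 ± 5.26 CPM (SD, n = 3 each). With the block PFKL passed as higher (adjusted p 0.0197) and PFKP as lower (adjusted p 0.0247), and PFKM did not pass (adjusted p 0.0688). Without a block, PFKL also passed in DESeq2 (adjusted p 0.0440) and PFKP in the additive model (adjusted p 0.00612). The ratio of PFKP to PFKL per exon length was 1.07, 1.26 and 1.10 under DMSO and 0.855, 0.859 and 0.834 under rapamycin, with no overlap. In the non-targeting libraries that ratio was 1.20 under DMSO and 0.857 and 0.924 under rapamycin. There PFKL was at 164 CPM under DMSO against 160.3 and 164 CPM, and PFKP was at 107 against 74.4 and 82.2 CPM.

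Aldolase splits fructose 1,6-bisphosphate, and 2 of its forms were measured. ALDOC (chromosome 17, 28573115 to 28577264) was at 59.5, 62.6 and 58.5 CPM under DMSO and at 45.1, 40.3 and 42.5 CPM under rapamycin, with no overlap, and fell 1.41-fold (log2 fold change -0.50, SE 0.08, adjusted p 0.00187). ALDOA, the more abundant form, was at 1264 ± 43.5 and 1208 ± 86.2 CPM (SD, n = 3 each) and did not pass (-0.07, SE 0.07, adjusted p 0.644). Triose phosphate isomerase, TPI1 (chromosome 12, 6867119 to 6870948), was at 409.8, 383 and 371 CPM under DMSO and 331, 323 and 311 CPM under rapamycin. It fell by -0.27 (SE 0.07, adjusted p 0.0292), a call lost under 6 of 18 alternatives, 5 of which left out 1 library, with adjusted p up to 0.128.

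PFKFB2, PFKFB3 and PFKFB4 make and break down fructose 2,6-bisphosphate, the activator of phosphofructokinase, and none of the 3 passed. PFKFB3 was at 22.4, 26.4 and 26.6 CPM under DMSO and 20.7, 23.1 and 21.1 CPM under rapamycin (-0.21, SE 0.11, adjusted p 0.283). PFKFB2 was at 70.2, 94.1 and 87.3 CPM and at 71.3, 88.6 and 83.5 CPM (-0.05, SE 0.12, adjusted p 0.869). In both genes the groups overlapped. PFKFB4 was at 19.3 ± 3.39 and 19.5 ± 2.81 CPM (SD, n = 3 each; 0.01, SE 0.14).

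Lower glycolysis was the role in which most genes fell: 5 of 6 passed as lower, and the sixth, the neuronal enolase ENO2, was at 6.28 ± 0.106 and 6.10 ± 1.30 CPM (SD, n = 3 each). PKM, pyruvate kinase of most tissues (chromosome 15, 72199029 to 72231822), was at 271, 332 and 349 CPM under DMSO and 160.2, 213 and 228 CPM under rapamycin. It fell 1.58-fold (log2 fold change -0.66, SE 0.12, adjusted p 0.00516), by -0.76, -0.64 and -0.61 in pairs 1, 2 and 3. The count does not separate the PKM1 and PKM2 splice forms.

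PGAM1, phosphoglycerate mutase (chromosome 10, 97426160 to 97433441), was at 279, 304 and 279.6 CPM under DMSO and 219, 211 and 215 CPM under rapamycin. It fell 1.34-fold (log2 fold change -0.42, SE 0.07, adjusted p 0.00187), with no overlap. GAPDH, the most abundant of the 32 genes and one often used to scale other measurements, was at 2372, 2335 and 2281 CPM under DMSO and 2046, 1844 and 1920.1 CPM under rapamycin. GAPDH fell 1.20-fold (log2 fold change -0.27, SE 0.06, adjusted p 0.0179), and its call was lost without DMSO replicate 2 or 3 or rapamycin replicate 3, and in the fit on the 6 HBG1 sgRNA libraries with no block (adjusted p up to 0.0877). With the non-targeting sgRNA GAPDH was at 2362 CPM under DMSO and 1994 and 1937 CPM under rapamycin. ENO1 and PGK1 fell by -0.24 (SE 0.06, adjusted p 0.0254) and -0.23 (SE 0.07, adjusted p 0.0453). Their calls were lost under 6 and 11 of 18 alternatives, with adjusted p up to 0.106 and 0.178 without DMSO replicate 2.

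The annotation limits several of these values. GENCODE 29 lists 62 pseudogenes named for GAPDH, 13 for PGAM1, 6 each for LDHA and RPE, 5 for PKM and 4 each for TPI1 and ENO1, and how reads matching more than 1 place were counted is not given in the sources used here. On the same strand, the annotated span of PGK1 overlaps ATP7A, that of ENO2 overlaps LRRC23 and that of PFKFB4 overlaps UCN2, among others. The spans of PGLS, RPE, TPI1, PFKM, PFKFB2 and SLC16A3, among others, overlap genes on the opposite strand. Reads of these cannot be told apart without a stated strand setting.

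Lactate dehydrogenase is built from the products of LDHA and LDHB. LDHA (chromosome 11, 18394388 to 18408425), the form favouring pyruvate reduction, was at 521, 583 and 526 CPM under DMSO and 394, 361 and 372 CPM under rapamycin. LDHA fell 1.45-fold (log2 fold change -0.53, SE 0.07, adjusted p 3.71e-04). LDHB (chromosome 12, 21635342 to 21757857) was at 595, 519.7 and 502 CPM under DMSO and 563, 517 and 514 CPM under rapamycin, with overlapping groups, and did not pass (-0.02, and 0.02 with upper-quartile scaling, SE 0.08, adjusted p 0.916). Within libraries the ratio of LDHA to LDHB per exon length was 0.421, 0.538 and 0.504 under DMSO and 0.336, 0.336 and 0.348 under rapamycin. The ratio was 0.512 in the non-targeting DMSO library and 0.390 and 0.401 under rapamycin, where LDHB was also lower, at 505 CPM against 444 and 440.4 CPM.

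Among the other genes of lactate and pyruvate handling, none passed in the edgeR fit on all 9 libraries with 1 mean per group. The lactate carrier SLC16A1 (MCT1) was at 185 ± 8.47 and 159 ± 9.11 CPM (SD, n = 3 each), with all rapamycin libraries below all DMSO libraries (-0.21, SE 0.08, adjusted p 0.105), and passed with the block (adjusted p 0.0280) and in the additive model (adjusted p 0.0192). SLC16A3 (MCT4), a hypoxia-inducible carrier, was at 2.50 ± 0.910 and 2.39 ± 0.263 CPM (SD, n = 3 each). PDK1 and PDK3 are kinases that switch off pyruvate dehydrogenase. PDK1 was at 32.6 ± 4.81 and 32.4 ± 1.90 CPM (SD, n = 3 each). PDK3 was near the detection limit, at 0.616, 0.663 and 0.197 CPM under DMSO and 0.310, 0.285 and 0.292 CPM under rapamycin, and its log2 fold change of -0.75 has an SE of 0.69 (adjusted p 0.591).

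**Figure D3:**
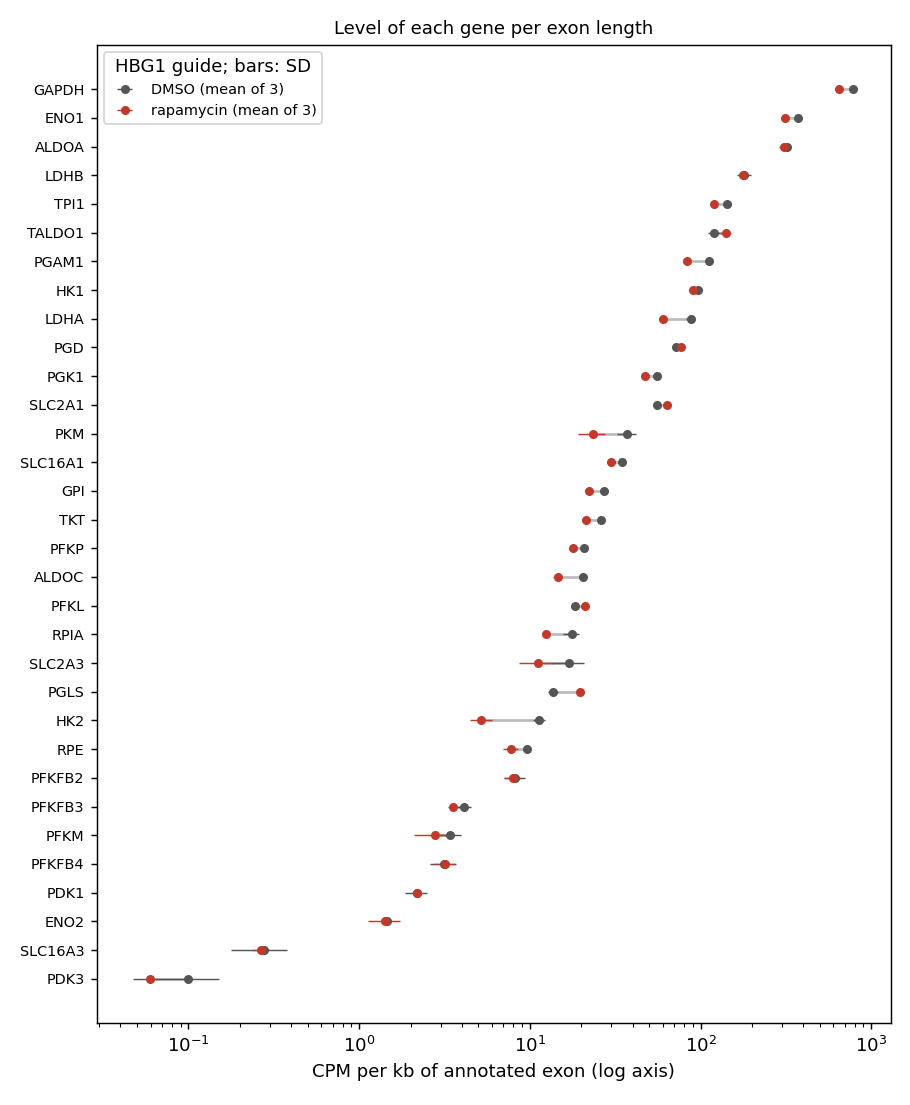
Mean level of each gene per kilobase of annotated exon with the HBG1 sgRNA, on a log axis, under DMSO and rapamycin, with SD over 3 libraries. GAPDH is highest, at 781 CPM per kb under DMSO and 649.7 under rapamycin, and the widest gap on this axis is that of HK2.

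On the level scale the order of the genes was steep. Per kilobase of annotated exon under DMSO with the HBG1 sgRNA, GAPDH led at 781 ± 15.4 CPM per kb, followed by ENO1 (372 ± 14.2), ALDOA (323 ± 11.1) and LDHB (181 ± 16.7; SD, n = 3 each). TALDO1 was the highest pentose phosphate gene, at 120.0 ± 9.66 CPM per kb, and PGD followed at 71.4 ± 1.57. TKT was at 26.1 ± 1.12, RPIA at 17.6 ± 1.95, PGLS at 13.6 ± 0.923 and RPE at 9.65 ± 0.334 CPM per kb. RPIA and PGLS lie next to each other among these 6 and do not overlap under DMSO, and under rapamycin PGLS, at 19.7 CPM per kb, was above RPIA, at 12.5. Annotated exon length includes exons of rare transcripts, so these levels understate genes with many of them.

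In the oxidative pentose phosphate branch, 6-phosphogluconolactonase (PGLS, chromosome 19, 17511629 to 17521288) rose, the 1 gene of the 32 called higher in the edgeR fit on all 9 libraries. DESeq2 also called PFKL and TALDO1 higher, and the additive model SLC2A1 and TALDO1. PGLS was at 37.0, 37.7 and 41.9 CPM under DMSO and 55.0, 59.0 and 54.1 CPM under rapamycin, with no overlap. The rise was 1.44-fold (log2 fold change 0.53, SE 0.09, adjusted p 0.00313), and the call was kept under all 18 alternatives tried for it. PGD, 6-phosphogluconate dehydrogenase, was at 217, 211 and 208 CPM under DMSO and 238, 221 and 222 CPM under rapamycin. Each pair was higher, by 0.13, 0.07 and 0.10, and the log2 fold change of 0.10 (SE 0.07) did not pass (adjusted p 0.436, and 0.213 with the block).

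The non-oxidative branch split. Ribose 5-phosphate isomerase (RPIA, chromosome 2, 88691644 to 88750935), which supplies ribose for nucleotides, was at 36.5, 31.4 and 29.5 CPM under DMSO and 23.6, 23.5 and 22.3 CPM under rapamycin. RPIA fell 1.41-fold (log2 fold change -0.49, SE 0.10, adjusted p 0.00930), but did not pass without rapamycin replicate 3 (adjusted p 0.0545). Transketolase (TKT, chromosome 3, 53224707 to 53256052) was at 238, 248 and 259 CPM under DMSO and 204, 208 and 196 CPM under rapamycin. TKT fell 1.22-fold (-0.29, SE 0.07, adjusted p 0.0172), and its call was lost without DMSO replicate 2 or 3 or rapamycin replicate 3 (adjusted p up to 0.0880).

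RPE, ribulose 5-phosphate epimerase, was at 32.6, 34.7 and 34.7 CPM under DMSO and 24.6, 30.2 and 27.4 CPM under rapamycin, with no overlap (-0.31, SE 0.10, adjusted p 0.0864). Transaldolase (TALDO1, chromosome 11, 747329 to 765024) was at 393, 336 and 354 CPM under DMSO and 459, 395 and 413 CPM under rapamycin. TALDO1 was higher by 0.23, 0.23 and 0.22 in pairs 1, 2 and 3, but replicate 1 was the highest in both arms, and in the edgeR fit on all 9 libraries its log2 fold change of 0.23 (SE 0.08) did not pass (adjusted p 0.106). TALDO1 passed as higher with the block (adjusted p 0.00554), and without a block in DESeq2 (adjusted p 0.0489), in the additive model (adjusted p 0.0274) and without DMSO replicate 1 (adjusted p 0.0433). RPE passed as lower with the block (adjusted p 0.0197) and in the additive model (adjusted p 0.0289). For all 6 pentose phosphate genes the 3 rapamycin libraries lay on 1 side of the 3 DMSO libraries, 3 higher and 3 lower, where 12.2% and 13.1% of all tested genes did so.

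**Figure D4:**
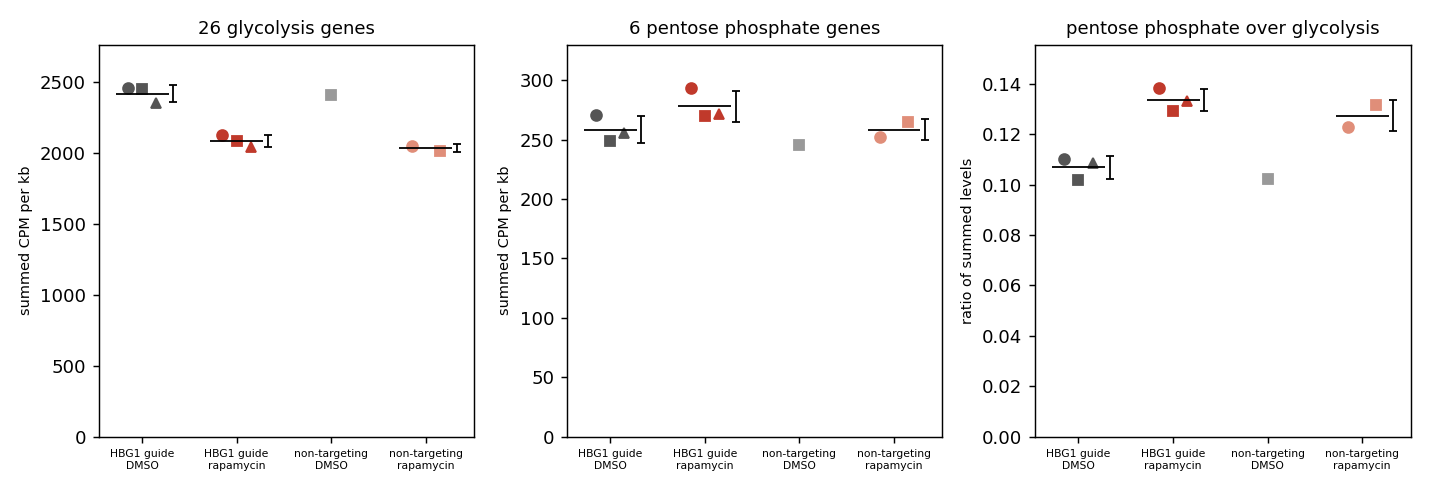
Summed CPM per kb of the 26 glycolysis genes, of the 6 pentose phosphate genes and the ratio of the sums, in each library (symbols are replicate numbers, lines and bars mean and SD). The ratio is between 0.102 and 0.110 in the 3 HBG1 sgRNA DMSO libraries and between 0.129 and 0.138 in the 3 rapamycin libraries.

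The pathways were then compared as sums over their genes in each library, as a description without a test. The 26 glycolysis genes summed to 2455, 2448 and 2349 CPM per kb under DMSO and 2122, 2086 and 2041 under rapamycin, lower in every pair. The 6 pentose phosphate genes summed to 271, 249 and 255 CPM per kb under DMSO and 293, 269.9 and 272 under rapamycin, higher in every pair but with overlapping groups. The ratio of the pentose phosphate to the glycolysis sum was 0.107 ± 0.00458 under DMSO and 0.134 ± 0.00446 under rapamycin (SD, n = 3 each), and the difference of log2 ratios was 0.33, 0.35 and 0.29 in pairs 1, 2 and 3. With the non-targeting sgRNA the ratio was 0.102 under DMSO and 0.123 and 0.132 under rapamycin. The sums weigh genes by their level, so GAPDH, ENO1 and ALDOA dominate the first sum and TALDO1 and PGD the second. Of all counts, the 26 glycolysis genes took 0.979% to 1.01% under DMSO and 0.846% to 0.886% under rapamycin with the HBG1 sgRNA. The 6 pentose phosphate genes took 0.0900% to 0.0933% under DMSO and 0.0956% to 0.0982% under rapamycin, here without overlap. With the non-targeting sgRNA they took 0.0879% under DMSO and 0.0867% and 0.0905% under rapamycin, so that share was not higher in both libraries.

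**Figure D5:**
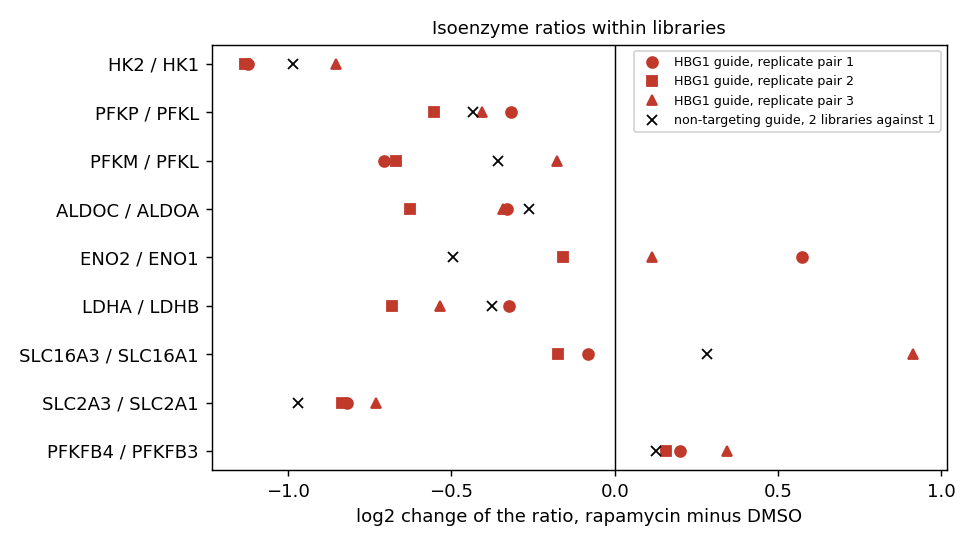
Change in the log2 ratio of isoenzyme or paralogue pairs from DMSO to rapamycin, per HBG1 sgRNA replicate pair (symbols) and with the non-targeting sgRNA (cross, the mean of 2 libraries minus 1). Ratios of HK2 to HK1, PFKP to PFKL, PFKM to PFKL, ALDOC to ALDOA, LDHA to LDHB and SLC2A3 to SLC2A1 lie below 0 in all 3 pairs.

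Ratios within a library do not depend on how libraries are scaled. For HK2 to HK1 the log2 ratio changed by -1.12, -1.13 and -0.85 in pairs 1, 2 and 3, for SLC2A3 to SLC2A1 by -0.82, -0.83 and -0.73, and for LDHA to LDHB by -0.32, -0.68 and -0.53. ALDOC to ALDOA changed by -0.33, -0.63 and -0.34. Both PFKFB4 to PFKFB3 and ENO2 to ENO1 overlapped between groups, as did SLC16A3 to SLC16A1 and PFKM to PFKL.

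With the non-targeting sgRNA, rapamycin was compared with a single DMSO library, so the values have no test. These libraries are separate from those of the HBG1 sgRNA. Of the 32 genes, 26 were lower, against 46.7% of all genes, and 23 were lower in both rapamycin libraries, against 35.6%. The sign matched that of the HBG1 sgRNA in both libraries for all 14 called genes, and for 94.8% of the 1609 called genes of the whole table. The median log2 fold change was -0.29 over the glycolysis genes and -0.09 over the pentose phosphate genes, against 0.03 over all genes. PKM (-0.77), SLC2A3 (-0.69), LDHA (-0.57) and PGAM1 (-0.49) were lower and PGLS higher (0.48). ENO2 was at 8.42 CPM under DMSO and at 5.37 and 5.09 CPM under rapamycin (-0.69), beside -0.04 with the HBG1 sgRNA.

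The difference between the guides' rapamycin changes was tested as an interaction, in which the spread of the single library is taken from the other groups. None of the 32 genes passed with edgeR (0 at an adjusted p and 0 at an unadjusted p under 0.05), nor with DESeq2 or limma-voom (0 and 0 each), and of all genes 0.00422% were called and 2.86% had an unadjusted p under 0.05 in edgeR. The interaction was 0.64 (SE 0.33) for ENO2, 0.22 (SE 0.13) for PFKL and 0.23 (SE 0.14) for PFKP. For HK2 it was -0.13 (SE 0.19). These errors are as large as many of the changes themselves, so the test does not show that the guides act alike.

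Under rapamycin, HBG1 and non-targeting sgRNA libraries were compared directly. Again 0 of the 32 genes passed with edgeR, DESeq2 or limma-voom, against 0.0296% of all genes called with edgeR. At an unadjusted p under 0.05 there were 2 in each of the 3 tools, PFKL (log2 difference 0.22, HBG1 higher) and LDHB (0.26, HBG1 higher), against 6.27% of all genes in edgeR. Under DMSO, where 3 libraries stand against 1 without a test, the median log2 difference over the 32 genes was -0.01.

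Beyond the 32 genes, 35 further genes of these pathways and their surroundings were counted, of which 29 could be tested. Of these 29, 4 fell and 2 rose, beside the 4.05% and 2.75% of all tested genes. H6PD, whose enzyme carries out the first oxidative steps inside the endoplasmic reticulum, rose from 20.7 ± 3.27 to 35.5 ± 4.71 CPM (log2 fold change 0.79, SE 0.13, adjusted p 0.00164). PDK2, a further pyruvate dehydrogenase kinase, rose from 3.42 ± 0.635 to 6.68 ± 0.940 CPM (0.98, SE 0.21, adjusted p 0.00923). PGAM5, a mitochondrial phosphatase despite its name, fell by -0.48 (adjusted p 0.00148), the pyruvate dehydrogenase phosphatase PDP2 by -0.48 (adjusted p 0.0293), the pyruvate dehydrogenase subunit DLAT by -0.34 (adjusted p 0.0154) and the pyruvate carrier subunit MPC1 by -0.31 (adjusted p 0.0489).

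Genes known to respond to the factors that act on these pathways were counted as context. Over all tested genes 4.05% were called lower and 2.75% higher, with a median log2 fold change of 0.02. Of 14 tested hypoxia-response genes outside glycolysis, 2 fell (DDIT4, -1.55, adjusted p 1.32e-04, and VEGFA, -0.51, adjusted p 0.00577), 1 rose (BNIP3L, 0.40, adjusted p 0.0252) and 11 did not pass, with a median of 0.12. Of 9 tested NRF2 target genes outside the pentose phosphate pathway, SLC7A11 fell (-0.89, adjusted p 3.06e-04), AKR1C1 rose (0.70, adjusted p 1.38e-04) and 7 did not pass, with a median of -0.20. Among 6 regulators, SREBF1 fell (-0.31, SE 0.07, adjusted p 0.0183) and the other 5 did not pass: HIF1A (-0.26, adjusted p 0.144), NFE2L2 (-0.14, adjusted p 0.366), SREBF2 (0.28, adjusted p 0.0637), MLXIP (0.20, adjusted p 0.190) and ARNT (0.18, adjusted p 0.282). The median of the 6 regulators was 0.02. With the block, SREBF2 (adjusted p 0.00516) and MLXIP (adjusted p 0.0173) passed as higher and HIF1A as lower (adjusted p 0.0479). That fit called 9.62% of its genes lower and 7.43% higher.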

How the data were processed

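RNA from K562-FIRE cells was sequenced in 9 libraries, grouped and numbered by their titles. The authors deposited 1 table of whole-number counts, with Ensembl gene IDs as its rows. STAR 2.7.3a, featureCounts of Subread 2.0.0 and GRCh38 are named, per the submitters' processing notes. The annotation release, strand setting and treatment of multiply mapping reads are not given in the sources used here. Symbols, positions and exon lengths came from GENCODE 29 (58039 of 58347 IDs matched), and promoters from RefSeq (GRCh38.p14).

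Counts were filtered with filterByExpr (minimum count 10), scaled with TMM and fitted in edgeR 4.0.16 (R 4.3.3) with 1 mean per group over all 9 libraries. Calls used the quasi-likelihood test at a Benjamini-Hochberg adjusted p under 0.05 over 23675 genes. SE was derived from the log2 fold change and the F statistic. Levels are TMM-scaled CPM, divided by union exon length where genes are compared. Sums and ratios are descriptions.

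Pairing was checked over 11481 genes: deviations of same-numbered HBG1 sgRNA libraries correlated at 0.553, 0.279 and 0.231, above the limit of 0.1, and the numbers were taken to pair them. Unlike numbers 2 and 3 correlated at 0.258 and 0.194, so the check sets replicate 1 apart but barely tells 2 from 3. Between guides the values were -0.069 and -0.069. The deviations of the 2 non-targeting rapamycin libraries mirror each other, so these are not 2 separate checks. Alternatives were other scalings, no filter, DESeq2 1.42.0, limma-voom 3.58.1, replicate blocks, an additive model and leaving out each library. In the additive model the rapamycin change is shared by both guides and drawn from all 9 libraries. Genes with values in every HBG1 sgRNA library were the 12 called with the largest changes, 2 per role and the pentose phosphate genes. Some others, such as LDHB, were chosen after their values were seen. Values in each non-targeting library are given for only some genes. The members and lists were chosen with earlier results of these data known.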

Additional observations from a re-analysis of the deposited data

How the results depend on the processing

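Of the 14 genes called for rapamycin with the HBG1 sgRNA, HK2, PKM, LDHA, ALDOC, PGAM1 and PGLS kept direction and call under every alternative tried, and the other 8 lost the call under at least 1. PDK3 had no value in 3 of the 18 alternatives. The interaction could not be fitted without the non-targeting DMSO library.

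The count of glycolysis genes called, 11, ran from 5 to 11 when 1 library was left out, and that of pentose phosphate genes, 3, from 1 to 4. On the 6 HBG1 sgRNA libraries alone the counts were 8 and 3 with no replicate block and 15 and 5 with the replicate block, and the pentose phosphate count was 5 in the additive model. Over all genes, the 1609 calls became 3263 in the additive model, whose rapamycin change is shared by both guides. The 6 HBG1 sgRNA libraries alone gave 1377 with no replicate block and 3441 with the replicate block. The 1609 became 664 to 1731 when 1 library was left out (664 without HBG1 sgRNA DMSO replicate 2, 693 without rapamycin replicate 3, 749 without DMSO replicate 3). Upper-quartile scaling gave 673 lower and 819 higher, against 959 and 650. It moved the median of all genes from 0.02 to 0.06. Between guides under rapamycin, 7 calls became 91 without a filter, 13 in DESeq2 and 21 with a replicate block shared by both guides. The 7 became 3 to 8 when 1 library was left out. That shared block pairs equal numbers across guides, where the pairing check gave -0.069, below the limit of 0.1. The interaction's 1 call became 8 without a filter, 3 in limma-voom, 0 in DESeq2, 0 with library totals only, 3 and 5 with the replicate block (shared, or within each guide), and 0 to 4 when 1 library was left out. The cause was not tested.

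Among the 32 genes, signs changed only for 6 genes near 0 that passed in no fit. PFKFB2 was 0.00595 in the additive model and ran from -0.159 to 0.0479 when 1 library was left out. PFKFB4 was -0.00172 in limma-voom, -0.00308 in the additive model and -0.115 to 0.170 without 1 library. LDHB was 0.0182 under upper-quartile scaling and -0.0701 to 0.0581 without 1 library. PDK1 was 0.0300 under upper-quartile scaling, 0.00955 with library totals only, 0.00556 with the replicate block and -0.0742 to 0.121 without 1 library. ENO2 ran from -0.202 to 0.0874 and SLC16A3 from -0.330 to 0.139 without 1 library. Depth limits PDK3 and SLC16A3 most, whose levels are lowest. On the 6 HBG1 sgRNA libraries, the replicate block kept the 11 calls made without it and added 9.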
